A study of Mus musculus with 30 samples.

Results

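The comparison described here sets the jejunum of mice 20 h after 1 injection of exendin-4 (Ex-4) against that of mice 20 h after 1 injection of phosphate-buffered saline (PBS). Its members are the 3 arrays titled for Ex-4 at 20 h and the 3 titled for PBS at 20 h, 6 of the 30 arrays of the series, and all 13201 genes tested, of 19057 with a probe. The study measured messenger RNA on Illumina beadchips in male C57BL/6 mice, an inbred strain, at 1, 5 and 20 h after a dose. All mice were 11 to 12 weeks old, had free access to food, and lived under 12 h of light and 12 h of dark. The Ex-4 group received 10 nmol/kg into the peritoneal cavity and the control group PBS. A further group of 3 arrays at 20 h received 1 mg/kg of human recombinant Fgf7, also called keratinocyte growth factor, and is used below as a second reference, as are the 4 Ex-4 and 4 PBS arrays of 5 h. RNA came from scrapings of the mucosa of a 2 cm piece of jejunum, so it pools epithelium with the underlying immune and stromal cells. The sources used here do not give the hour of the day at which the mice were injected or killed.

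Exendin-4 is a peptide that activates the GLP-1 receptor. Glucagon-like peptide 1 (GLP-1) is a hormone that enteroendocrine cells of the gut release after a meal and that raises insulin secretion, slows gastric emptying and lowers food intake. In the intestine the receptor is known from intraepithelial lymphocytes, enteric neurons and a subset of endocrine cells rather than from the enterocytes that make up most of the mucosa. Enterocytes of the jejunum absorb sugars, lipids and vitamins, carry a large set of enzymes that modify foreign compounds, and take part in the defence against luminal bacteria. Their transcripts also follow a daily rhythm set by a molecular clock and by feeding.

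Values below are log2 signals as deposited, and a level under 7.18 is called dim, because background probes lie there. Of 10 enterocyte markers 9 were tested, and their mean level was 13.55 to 13.86 in the 6 arrays. Fabp2, another such marker, had a probe that was not above the dim level. Glp1r, the receptor gene, had a single probe that was above the dim level in 0 of 30 arrays and was not tested. Across genes, each of the 6 arrays correlated with the arrays of its own group at a mean r of 0.991 to 0.993, where genes are not independent replicates. The labels give the arrays as separate samples. Each SE and p-value reflects the spread within all 9 groups of the 30 arrays, not only within these 6, and that spread may be technical in part. Where the Ex-4 arrays of 20 h spread more widely than other groups, a printed SE may be smaller than these 6 arrays alone would give. In scrapings, fewer cells of a type and less RNA per cell cannot be told apart.

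At 20 h after Ex-4, 5 of 11 acute-phase and metal-withholding genes tested rose. Of 22 genes of epithelial oxidases and antioxidant enzymes 4 rose and 2 fell. Of 100 genes of drug and toxin metabolism 42 fell, as did 2 of 5 output genes of the clock, and no Paneth cell gene passed. The lists were chosen with earlier results of these data known, so counts by list, here and below, are descriptions and not independent of the data. Of 13201 genes, 302 passed limma's test at an adjusted p under 0.05, which is 2.29% (n = 3 per group). Of these, 132 were higher (1.00% of all genes) and 170 lower (1.29%). These shares of all genes stand beside the counts of rises and falls in each list below. The median fold was 1.34 among the higher and 1.49 among the lower genes. At least 2-fold changes were seen for 15 higher and 20 lower genes. The 3 Ex-4 arrays lay entirely above or below the 3 PBS arrays for 298 of the 302 genes, against 15.1% of all genes tested. Over all genes the median log2 difference was 0.01, with 53.8% above 0 and 46.2% below. The count rested partly on the arrays that shaped the variance: it was 71 (11 higher, 60 lower) when these 6 arrays were fitted alone and 132 (37 higher, 95 lower) with the 9 arrays of 20 h. Leaving out single arrays gave 134 genes (Ex-4 replicate 1 left out), 167 (PBS replicate 2) or 185 (PBS replicate 3). With Ex-4 replicate 3 left out it was 316, of which 178 were higher and 138 lower.

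Single arrays did not move alike. Among the 25 genes of the largest rises, Ex-4 replicate 2 lay farthest from the PBS mean for 14, replicate 1 for 9 and replicate 3 for 2, and replicate 3 lay nearest to it for 16. The median shift of these 25 genes from the PBS mean was 1.20 in replicate 1, 1.39 in replicate 2 and 0.62 in replicate 3 on the log2 scale. Among the 25 genes of the largest falls, the median shifts were closer to each other, at -1.38, -1.18 and -1.23. Here Ex-4 replicate 1 lay farthest from the PBS mean for 16, replicate 2 for 3 and replicate 3 for 6. Replicate 1 lay nearest to it for 1, and replicates 2 and 3 for 12 each. The heat map shows both sets, with the Fgf7 arrays beside them. Both sets were drawn from passing genes whose Ex-4 and PBS arrays did not overlap. For these genes, lack of overlap in the descriptions below therefore follows from the choice. In all, 41 of these 50 genes passed in each of the 6 fits that left out 1 array. With only the 6 arrays compared 25 of the 50 did not pass, among them Gsdmc2, Gpx2, Capn13, Oxct1, Gmds, Slc5a4b and Dbp. Of these 25, 13 also did not pass with the 9 arrays of 20 h, namely Saa3, Duox2, Duoxa2, Gsdmc3, Car4, Cd55, AA467197, Pla2g4c, Rnf186, Sprr2a1, Arntl, Slc17a4 and Cyp2c29.

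**Figure D1:**
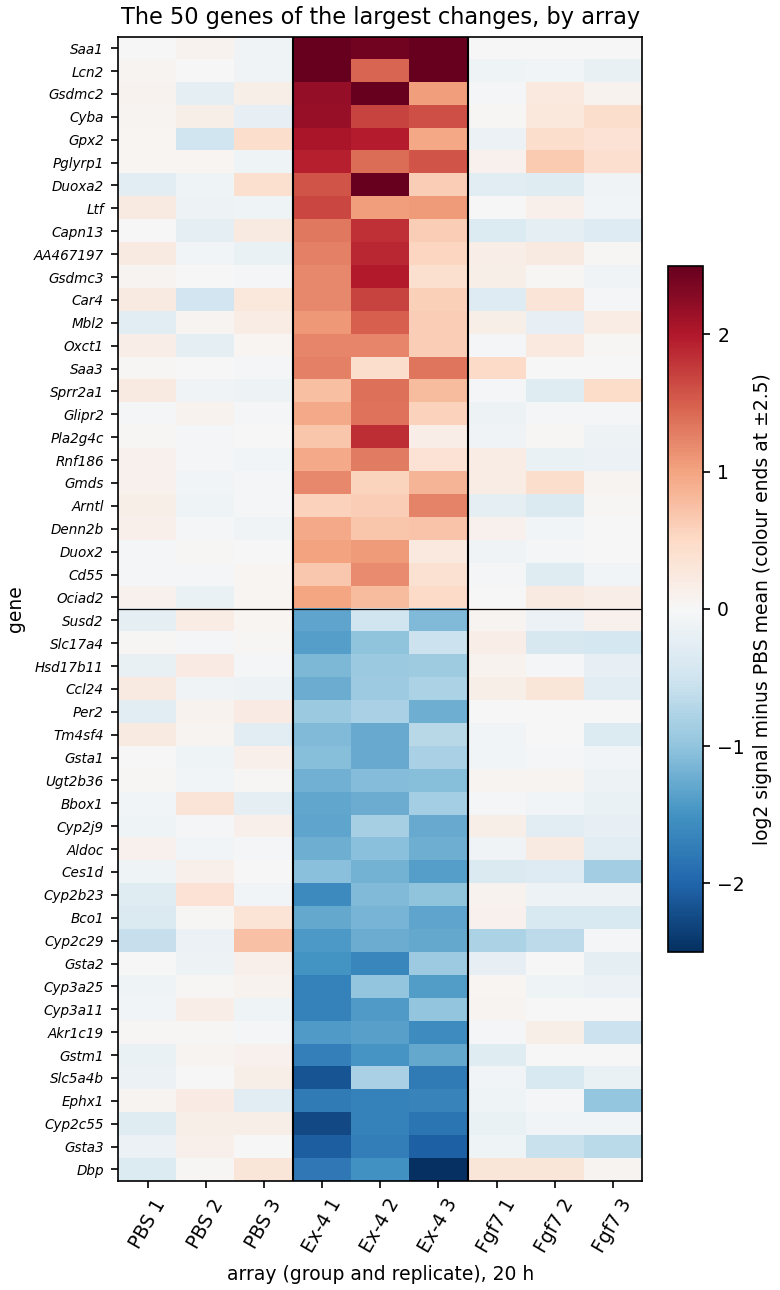
Log2 signal minus the PBS mean of the same gene (colour, ending at ±2.5) for the 25 genes of the largest rises and the 25 of the largest falls at 20 h after Ex-4, in rows, by array, in columns. Ex-4 replicate 3 has a median shift of 0.62 among the rises against 1.39 in replicate 2. The median shifts of the falls are -1.38, -1.18 and -1.23 in Ex-4 replicates 1, 2 and 3, and replicate 1 is farthest from PBS for 16 of the 25.

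The rises are described by group, starting with secreted proteins of the acute phase and of metal withholding. Of 11 genes of that list that were tested, of 15 in the list, 5 rose and 0 fell, with a list median of 0.04 on the log2 scale beside 0.01 for all genes. Saa1, a serum amyloid A that binds lipids and retinol, was at 7.04, 7.15 and 6.97 in the 3 PBS arrays and at 10.70, 9.47 and 10.04 in the Ex-4 arrays. The PBS values were all dim and the Ex-4 values all far above them. Saa1 thus rose at least 7.41-fold, from a mean of 7.05 to 10.07 (adjusted p = 5.08e-13). Saa3, a serum amyloid expressed outside the liver, went from 7.23, 7.20 and 7.15 to 8.45, 7.62 and 8.53, a log2 difference of 1.00 ± 0.16 (SE; adjusted p = 0.000316), with 2 of the 3 PBS arrays above the dim level. Both genes were lowest in Ex-4 replicate 2, and all Ex-4 arrays lay above all PBS arrays. A second probe of Saa1 gave a log2 difference of only 0.43, and probes of this family may share targets.

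Lcn2, lipocalin 2, which binds bacterial siderophores and so withholds iron, was at 7.13, 7.07 and 6.96 after PBS and at 9.77, 8.50 and 9.66 after Ex-4. It rose at least 4.38-fold (adjusted p = 6.68e-09). Ltf, lactoferrin, an iron-binding milk and granule protein, was at 7.45, 7.12 and 7.13 against 8.90, 8.29 and 8.30, a 2.40-fold rise (adjusted p = 2.56e-07), with 1 of the 3 PBS arrays above the dim level. The groups were apart for both genes, and Ex-4 replicate 2 was the lowest of the Ex-4 arrays for both. Pglyrp1, a peptidoglycan recognition protein that kills bacteria, was at 10.88, 10.88 and 10.72 against 12.78, 12.22 and 12.41, a 3.12-fold rise (adjusted p = 2.75e-06), while its second probe, near background, differed by 0.04. Lcn2, Ltf and Pglyrp1 are also stored in neutrophil granules. Of 15 neutrophil markers 7 were tested and 0 passed, their mean level per array was 7.25 to 7.40 after PBS and 7.19 to 7.36 after Ex-4, and S100a9, Elane, Ngp, Cxcr2, Mmp8, Stfa2l1 and Prtn3 were not above the dim level.

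Other members of the list did not pass. Hp, haptoglobin, had a log2 difference of 0.03, Hamp, hepcidin, 0.04, Cp, ceruloplasmin, -0.03, and Saa2 0.01. Among Reg lectins, small antibacterial or regenerative C-type lectins of the gut, 0 of 7 rose and 1 fell. Reg3g, which binds gram-positive bacteria, was at 10.85, 12.16 and 13.38 after PBS and at 14.46, 14.41 and 14.56 after Ex-4. These groups did not overlap, but the PBS arrays were so spread that the log2 difference of 2.34 ± 0.78 had an adjusted p of 0.144. Reg3b, a close relative, was at 13.78 to 15.15 after PBS and 14.74 to 14.89 after Ex-4 (adjusted p = 0.907). Reg3a was the member that fell, by 0.47 ± 0.10 on the log2 scale (adjusted p = 0.00672), and this call was lost without PBS replicate 3. Of 11 Paneth cell genes, among them the defensins Defa20 (0.11 ± 0.08) and Defa23 and the lysozyme Lyz1 (-0.16 ± 0.17), 0 passed.

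Among 22 genes of epithelial oxidases and antioxidant enzymes that were tested, 4 rose and 2 fell (median 0.08). Cyba, the p22phox subunit that NADPH oxidases need at the membrane, was at 9.61, 9.70 and 9.35 after PBS and at 11.73, 11.24 and 11.15 after Ex-4. The lowest Ex-4 array was well above the highest PBS array, and Cyba rose 3.54-fold (adjusted p = 2.31e-07). Duox2, the hydrogen peroxide producing dual oxidase of the epithelial surface, was at 7.05, 7.13 and 7.10 against 8.09, 8.15 and 7.33, which is at least 1.60-fold higher (adjusted p = 0.000259). Duoxa2, the factor that carries Duox2 to the membrane, was at 7.32, 7.49 and 8.01 against 9.19, 10.20 and 8.23, a log2 difference of 1.60 ± 0.27 (adjusted p = 0.000735). Both partners were lowest in Ex-4 replicate 3, where Duoxa2 was just above the highest PBS array. Gpx2, the glutathione peroxidase of the gut epithelium that removes hydroperoxides, was at 12.39, 11.86 and 12.78 against 14.38, 14.31 and 13.31, a 3.15-fold rise (adjusted p = 0.000334).

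The members of the same list that fell were Cat, catalase, which splits hydrogen peroxide in peroxisomes (-0.80 ± 0.16, adjusted p = 0.00396), and Gclm, the modifier subunit of the enzyme that starts glutathione synthesis (-0.54 ± 0.12, adjusted p = 0.00843). The call on Cat was lost without Ex-4 replicate 1 or PBS replicate 3, and that on Gclm without Ex-4 replicate 1 or PBS replicate 2. Noxo1, an organiser of the NOX1 oxidase, differed by 0.10 ± 0.11, Noxa1, its activator, by -0.06 ± 0.08 and Nos2, the inducible nitric oxide synthase, by 0.12 ± 0.07, and none of the 3 passed. The superoxide dismutases Sod1 (-0.17) and Sod2 (0.08) and the peroxidases Gpx1 (0.14) and Gpx4 (-0.19) did not pass either.

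**Figure D2:**
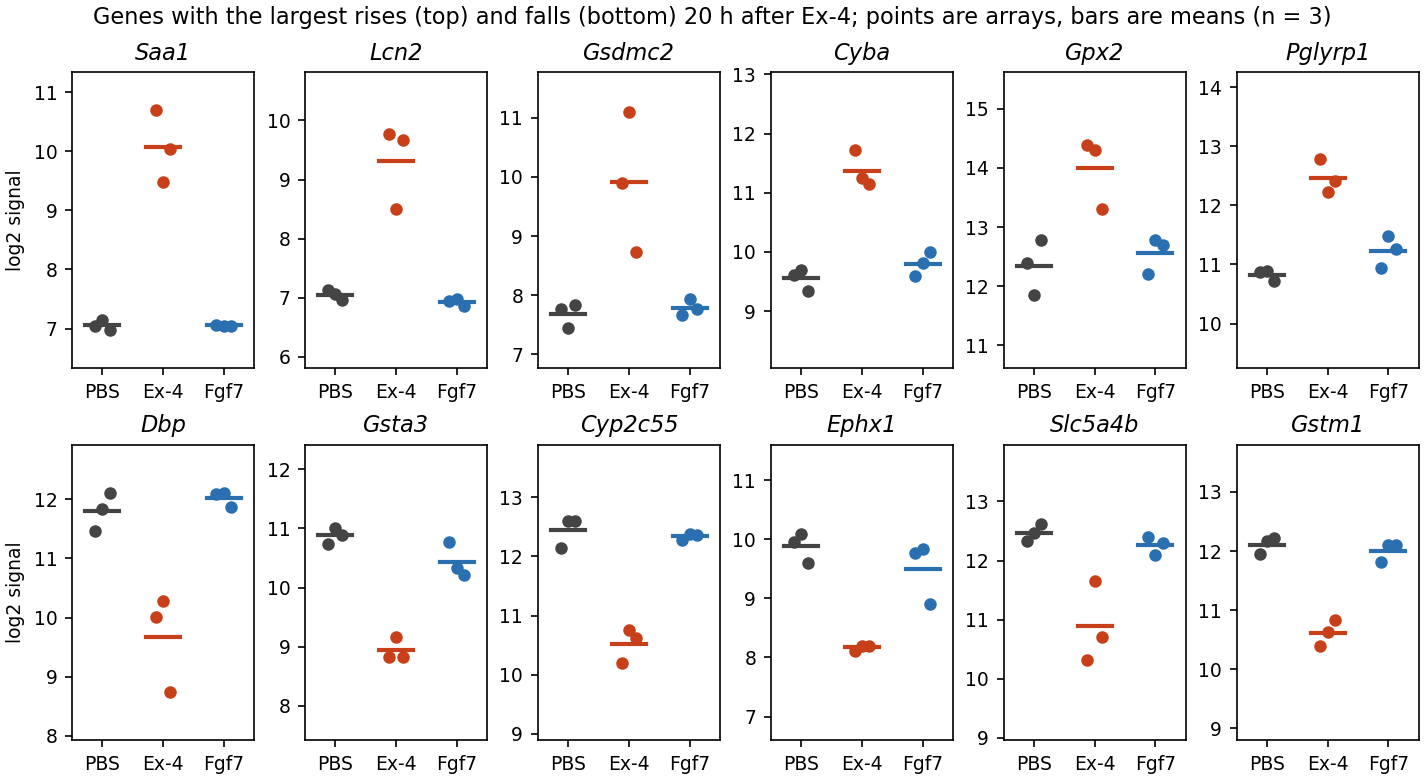
Log2 signal (vertical axis, each panel spanning the same range) of the 6 genes of the largest rises (top row) and the 6 of the largest falls (bottom row) at 20 h in PBS, Ex-4 and Fgf7 arrays. Points are arrays, with replicates 1 to 3 from left to right, and bars are means (n = 3). In each panel the 3 Ex-4 arrays lie outside the range of the 3 PBS arrays, a condition by which these genes were chosen. The spread of the Ex-4 arrays is widest for Gsdmc2, from 8.74 to 11.09.

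Gasdermins, proteins whose cleaved fragments open pores in membranes, were a further group among the rises. Of 13 gasdermin and inflammasome genes 2 rose and 0 fell (median 0.12), beside 1.00% of all genes that rose. Gsdmc2 was at 7.77, 7.45 and 7.84 after PBS and at 9.89, 11.09 and 8.74 after Ex-4, a 4.66-fold rise with a wide spread among the Ex-4 arrays (2.22 ± 0.34, adjusted p = 0.000277). Gsdmc3 was at 7.20, 7.12 and 7.08 against 8.33, 9.12 and 7.53 (1.19 ± 0.20, adjusted p = 0.000670), with 1 of the 3 PBS arrays above the dim level. Both were highest in replicate 2 and lowest in replicate 3, and neither overlapped with PBS. Their neighbour Gsdmc4 had a log2 difference of 0.33 ± 0.09 (adjusted p = 0.0513). These paralogs are close in sequence, so which of them each probe measured is uncertain. Gsdmd, the pore former of the inflammasome (0.23 ± 0.11), Casp1, the protease that activates it (-0.25 ± 0.09), and the cytokine gene Il18 (0.35 ± 0.16) did not pass.

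Several further rises had the same order of arrays, highest in Ex-4 replicate 2 and lowest in replicate 3. Car4, a carbonic anhydrase of the apical membrane, was at 11.39, 10.69 and 11.44 after PBS and at 12.37, 12.87 and 11.77 after Ex-4 (1.16 ± 0.23, adjusted p = 0.00335). Cd55, which protects cells from complement, was at 10.20, 10.21 and 10.29 against 10.91, 11.43 and 10.62 (0.75 ± 0.14, adjusted p = 0.00252). Capn13, a calpain protease, was at 8.31, 8.11 and 8.56 against 9.64, 10.16 and 8.94 (1.25 ± 0.16, adjusted p = 2.85e-05). In all 3 genes the groups did not overlap, and replicate 3 was the array closest to PBS. Pla2g4c, a cytosolic phospholipase, was dim after PBS and at 7.67, 8.84 and 7.14 after Ex-4, where replicate 3 was dim too. Its mean after Ex-4, raised mostly by replicate 2, was at least 1.63-fold higher (adjusted p = 0.0149). The call was lost without PBS replicate 2 or 3. AA467197 (1.23 ± 0.23) and Glipr2 (0.96 ± 0.12) had that order as well, as had Rnf186, a ubiquitin ligase of the gut epithelium (0.87 ± 0.19). The call on Rnf186 was lost without Ex-4 replicate 1 or 2 or PBS replicate 2 or 3.

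Oxct1, which activates ketone bodies for oxidation in mitochondria, was at 10.94, 10.54 and 10.81 after PBS and at 11.98, 11.99 and 11.38 after Ex-4, a 2.03-fold rise (adjusted p = 0.000144). Gmds, the first enzyme of GDP-fucose synthesis, was at 11.11, 10.94 and 10.96 against 12.20, 11.55 and 11.86 (0.86 ± 0.16, adjusted p = 0.00160). The groups were apart for both. Sprr2a1, a small proline-rich protein of epithelia (0.98 ± 0.22), lost its call without PBS replicate 2 or 3 or Ex-4 replicate 2, and Ociad2 (0.75 ± 0.15) without Ex-4 replicate 1 or PBS replicate 2. Mbl2, a mannose-binding lectin that starts the complement cascade, had an adjusted p of 0.0411 (1.06 ± 0.28) and passed in only 1 of the 6 fits that left out an array, the one without Ex-4 replicate 3. Among transporters, Slc1a1, which takes up glutamate, rose by 0.56 ± 0.11 (adjusted p = 0.00296), and Slc5a8, which takes up short monocarboxylates, by 0.60 ± 0.14 (adjusted p = 0.0136). The call on Slc5a8 was lost without PBS replicate 1 or Ex-4 replicate 1 or 2.

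The falls were led by enzymes of drug and toxin metabolism. Of 131 genes in 4 lists of such enzymes 100 were tested, 1 rose and 42 fell, with a median log2 difference of -0.35 and 89 of 100 below 0, beside 46.2% of all genes. These 42 made up 24.7% of all falls. In phase 1 metabolism, cytochromes P450 add oxygen to lipophilic compounds. Of 29 such genes 13 fell and 0 rose (median -0.28). Cyp2c55 was at 12.15, 12.59 and 12.59 after PBS and at 10.19, 10.76 and 10.61 after Ex-4, a 3.79-fold fall (adjusted p = 0.000308). Cyp3a11, the main mouse relative of human CYP3A4, was at 13.79, 14.02 and 13.75 against 12.16, 12.43 and 12.86 (-1.37 ± 0.20, adjusted p = 0.000103). The groups did not overlap in either gene, and Ex-4 replicate 3 was the nearest to PBS for Cyp3a11. Cyp3a25 fell by 1.36 ± 0.14 (adjusted p = 1.03e-06), and the other Cyp3a gene tested, Cyp3a13, by 0.35 ± 0.07 (adjusted p = 0.00501, lost without PBS replicate 3).

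By subfamily, all 3 Cyp3a genes tested fell, beside 1.29% of all genes. So did 4 of 8 Cyp2c, 2 of 3 Cyp2b, 3 of 4 Cyp2d and 1 of 13 Cyp4 genes. Cyp2b10, in mouse liver a standard target of the nuclear receptor CAR, was at 13.24, 13.77 and 13.55 after PBS and at 12.34, 12.97 and 12.62 after Ex-4 (-0.87 ± 0.14, adjusted p = 0.000300). Cyp2b23 was at 10.97, 11.64 and 11.19 against 9.67, 10.16 and 10.27 (-1.23 ± 0.19, adjusted p = 0.000277). Cyp2c65 was at 13.83, 13.82 and 13.89 against 12.92, 13.15 and 13.06, a small spread that gave an adjusted p of 1.98e-06. The groups did not overlap in any of the 3 genes, and the gap was narrowest for Cyp2b10. Cyp2j9, an epoxygenase, fell by 1.13 ± 0.16 (adjusted p = 5.70e-05). Cyp2c29 fell on average (-1.32 ± 0.36, adjusted p = 0.0482), but its PBS arrays ran from 7.93 to 9.23 and it passed only without PBS replicate 1 among the 6 fits that left out an array. The highly expressed Cyp4f14, a fatty acid hydroxylase, differed by -0.06 ± 0.09, and Cyp2s1 by 0.09 ± 0.08. The Cyp2c, Cyp2b and Cyp3a genes have near-identical paralogs, and a probe may read more than 1 of them.

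Hydrolases, reductases and dehydrogenases moved the same way, with 13 falls and 1 rise among 29 genes (median -0.43). Ephx1, the microsomal epoxide hydrolase, was at 9.96, 10.09 and 9.59 after PBS and at 8.12, 8.19 and 8.20 after Ex-4, a 3.27-fold fall (adjusted p = 5.47e-06). Akr1c19, an aldo-keto reductase, was at 13.13, 13.14 and 13.05 against 11.70, 11.75 and 11.53, a 2.73-fold fall (adjusted p = 1.79e-06). Ces1d, a carboxylesterase of triacylglycerols and drugs, was at 10.02, 10.27 and 10.12 against 9.09, 8.96 and 8.75 (-1.20 ± 0.22, adjusted p = 0.00180). The 3 Ex-4 arrays were tight and far below PBS for each of these genes. The soluble epoxide hydrolase Ephx2 fell by 0.57 ± 0.11, the carbonyl reductase Cbr1 by 0.58 ± 0.09 and the alcohol dehydrogenases Adh1 by 0.78 ± 0.13 and Adh4 by 0.93 ± 0.18, the last not without Ex-4 replicate 1. Of 7 Ces1 genes 4 fell, Ces1f only with all 6 arrays (adjusted p = 0.0488). The member that rose, Akr1b8, went from 7.45, 7.71 and 7.41 to 8.010, 8.010 and 8.004 (adjusted p = 0.0338) and passed in 1 of the 6 fits without an array, that without PBS replicate 2.

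In phase 2, glutathione transferases couple reactive compounds to glutathione. Of 24 genes 9 fell and 0 rose (median -0.36). All 4 Gsta genes fell. Gsta3 was at 10.73, 11.02 and 10.89 after PBS and at 8.82, 9.16 and 8.83 after Ex-4, a 3.84-fold fall (adjusted p = 1.68e-06). Gsta2 was at 14.08, 13.95 and 14.20 against 12.58, 12.45 and 13.17 (-1.34 ± 0.17, adjusted p = 2.03e-05), and Gsta1 at 14.31, 14.20 and 14.45 against 13.26, 13.06 and 13.52 (-1.04 ± 0.12, adjusted p = 2.75e-06). For the Gsta genes, whose sequences are alike, the groups were far apart in every case. Gstm1 was at 11.94, 12.17 and 12.21 against 10.39, 10.63 and 10.84, a 2.81-fold fall (adjusted p = 0.00151). Of 7 Gstm genes 3 fell and all 7 lay below 0. Second probes near background gave -0.24 for Gsta3 and -0.10 for Gstm1. Gsto1 (0.14 ± 0.08), Gstp1 (-0.18 ± 0.12) and Mgst3 (-0.17 ± 0.11), abundant members of other classes, did not pass.

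Conjugation with glucuronic acid or sulfate was represented by 18 genes, of which 7 fell and 0 rose (median -0.44). Ugt2b36 was at 10.44, 10.35 and 10.44 after PBS and at 9.21, 9.32 and 9.34 after Ex-4, a 2.17-fold fall with little spread (adjusted p = 5.12e-07). Ugt1a1, which conjugates bilirubin, was at 10.35, 10.61 and 10.29 against 9.21, 9.53 and 9.64 (-0.95 ± 0.13, adjusted p = 3.48e-05). Ugt1a10 fell by 0.50 ± 0.07, and Ugt1a genes share their last exons, so their probes may overlap. Abcc2, which pumps conjugates into the lumen, was the 1 of 12 drug exporters that fell (-0.65 ± 0.11, adjusted p = 0.000806). It did not pass with only the 6 arrays compared or with the 9 arrays of 20 h. None of the 23 nuclear receptor and xenobiotic sensor genes tested passed (smallest adjusted p 0.0848, Vdr). The receptors that are known to induce many of these enzymes in liver, Nr1i2 (PXR, -0.25 ± 0.13) and Nr1i3 (CAR, -0.16 ± 0.10), and the antioxidant factor Nfe2l2 (-0.03 ± 0.14) were among them.

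**Figure D3:**
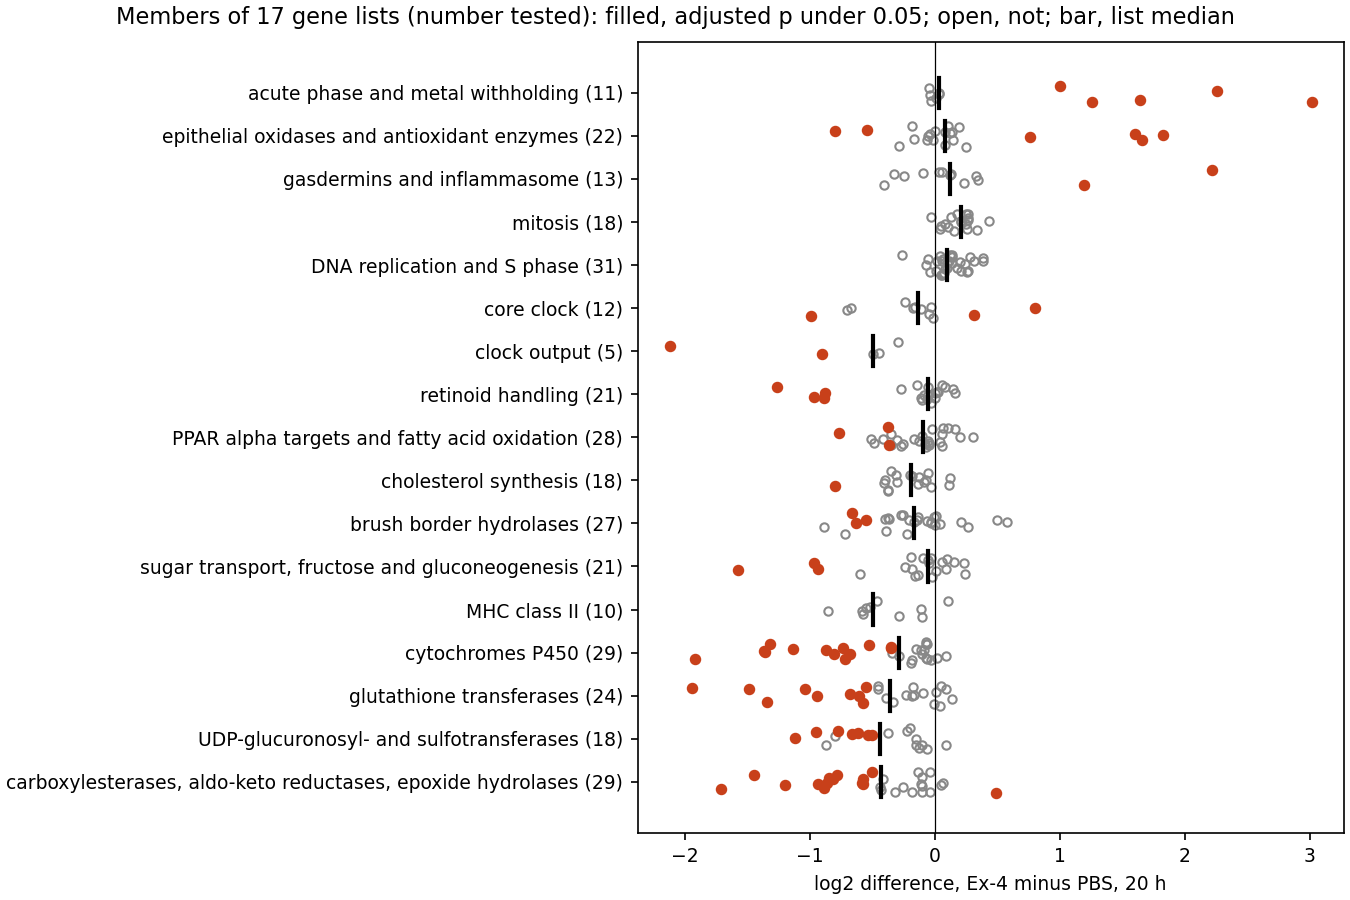
Log2 difference between Ex-4 and PBS at 20 h (horizontal axis) for the tested members of 17 gene lists (vertical axis, number tested in brackets). Filled points had an adjusted p under 0.05 in limma's test over all genes, open points did not, and bars are list medians. The 4 enzyme lists at the bottom hold 42 filled points below 0 and 1 above, while the acute-phase list holds 5 filled points above 0 and a median of 0.04.

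Promoter windows of 4 of the genes above and below are printed as examples that hold a motif by which such genes are known to be controlled, and they were chosen because they hold it. The window of Dbp, the gene of the largest fall, was also searched and held none of the 4 motifs. Each is 300 bases from RefSeq (GRCm38.p6), 250 before and 50 after a gene start, and capitals mark the motif. Gsta3 (chr1:21240335-21240634, plus strand) and Akr1c19 (chr13:4233490-4233789, plus strand) hold the core of the antioxidant response element, TGACNNNGC, the Akr1c19 match being on the reverse strand. Tef (chr15:81802423-81802722, plus strand) holds CACGTG, the E-box that the Arntl and Clock pair binds. Arntl (chr7:113207261-113207560, plus strand) holds TAGGTCA, the element that Nr1d1 and Ror proteins bind.
Gsta3: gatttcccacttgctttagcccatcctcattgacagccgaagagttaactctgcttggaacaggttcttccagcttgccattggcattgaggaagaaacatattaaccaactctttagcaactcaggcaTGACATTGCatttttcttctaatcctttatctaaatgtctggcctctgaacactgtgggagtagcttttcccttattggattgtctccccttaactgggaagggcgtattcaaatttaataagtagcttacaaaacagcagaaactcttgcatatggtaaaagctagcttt
Akr1c19: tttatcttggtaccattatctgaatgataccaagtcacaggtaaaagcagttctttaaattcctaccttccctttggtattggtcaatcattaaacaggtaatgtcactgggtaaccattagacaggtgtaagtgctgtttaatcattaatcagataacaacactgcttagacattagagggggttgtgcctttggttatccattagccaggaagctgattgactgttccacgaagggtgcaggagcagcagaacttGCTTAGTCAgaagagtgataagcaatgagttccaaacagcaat
Tef: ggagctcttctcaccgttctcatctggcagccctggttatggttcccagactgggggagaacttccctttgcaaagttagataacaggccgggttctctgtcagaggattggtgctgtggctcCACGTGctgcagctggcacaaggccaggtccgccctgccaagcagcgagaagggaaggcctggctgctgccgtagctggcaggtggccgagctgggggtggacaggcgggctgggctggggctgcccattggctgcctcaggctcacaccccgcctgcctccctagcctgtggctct
Arntl: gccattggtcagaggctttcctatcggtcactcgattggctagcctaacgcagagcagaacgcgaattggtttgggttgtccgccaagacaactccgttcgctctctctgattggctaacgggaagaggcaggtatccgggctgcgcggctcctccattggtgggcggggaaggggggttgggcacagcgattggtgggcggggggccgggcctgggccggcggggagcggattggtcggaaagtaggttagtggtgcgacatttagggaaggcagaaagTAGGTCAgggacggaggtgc
The match begins 121 bases before the start in Gsta3 and 127 before it in Tef, and 7 bases after the start in Akr1c19 and 30 after it in Arntl, in 1 of the 2 windows of Arntl and in both of Tef. No match overlapped another motif searched. On both strands, TGACNNNGC was in 12.2% of 181 windows of genes that fell, 10.4% of 134 windows of genes that rose, 14% of the windows of all tested genes and 12.4% of all 32851 windows. CACGTG was in 8.29%, 8.96%, 9.47% and 7.15% of these sets, TAGGTCA in 1.66%, 0.746%, 2.00% and 2.61%, and the D-box TTANGTAA, which Dbp and Tef bind, in 1.66%, 0.00%, 1.63% and 2.32%. These shares are descriptions, and a match does not show that a factor binds there.

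The clock genes moved in both directions. In the clock's loop, Arntl (Bmal1) and Clock or Npas2 drive transcription of the Per, Cry and Nr1d genes, which repress it in turn, and of output factors such as Dbp and Tef. Dbp was at 11.46, 11.84 and 12.10 after PBS and at 10.00, 10.29 and 8.75 after Ex-4, a 4.35-fold fall (adjusted p = 3.68e-06), the largest of all falls among genes tested. Tef was at 9.23, 9.58 and 9.79 against 8.62, 9.15 and 8.12 (-0.91 ± 0.18, adjusted p = 0.00410). Per2 was at 9.20, 9.57 and 9.70 against 8.55, 8.67 and 8.26 (-0.99 ± 0.18, adjusted p = 0.00219). Ex-4 replicate 3 was lowest for all 3 genes, and the groups did not overlap. Other probes of Per2 gave -0.97 and, near background, -0.03. On the positive side, Arntl was at 8.53, 8.26 and 8.33 against 8.96, 8.98 and 9.61 (0.81 ± 0.13, adjusted p = 0.000308), again with replicate 3 farthest from PBS. Npas2 was at 7.62, 7.64 and 7.42 against 7.94, 7.72 and 7.97 (0.32 ± 0.08, adjusted p = 0.0268), a call lost without Ex-4 replicate 1 or 3 or PBS replicate 3. With only the 6 arrays compared, Dbp, Tef, Arntl and Npas2 did not pass, and with the 9 arrays of 20 h Tef, Arntl and Npas2 did not, while Per2 passed under every alternative.

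Of 12 core clock genes tested 2 rose and 1 fell (median -0.13), and of 5 output genes 0 rose and 2 fell, all 5 lying below 0 (median -0.49). Clock itself differed by -0.03 ± 0.09, Per1 by -0.67 ± 0.25 (adjusted p = 0.209), Nr1d2 by -0.70 ± 0.25 (adjusted p = 0.178), Bhlhe40 by -0.49 ± 0.16 (adjusted p = 0.119) and Usp2 by -0.44 ± 0.14 (adjusted p = 0.0974). In the PBS groups, Dbp had a mean of 12.34 at 1 h, 12.54 at 5 h and 11.80 at 20 h, and Arntl 8.0, 7.99 and 8.38. After Ex-4, Dbp was at 12.29, 12.50 and 9.68 and Arntl at 8.17, 7.91 and 9.18. At 1 h and 5 h neither of these genes passed. Nr1d1, which encodes the repressor REV-ERB alpha, was the 1 core clock gene that passed at 5 h, with a mean of 8.97 after PBS and 8.41 after Ex-4 (-0.56 ± 0.11, adjusted p = 0.0114), and it differed by -0.24 ± 0.13 at 20 h, where it did not pass. For Dbp and Arntl the PBS mean at 20 h lay to 1 side of that at 5 h, and the Ex-4 arrays of 20 h lay farther to that side. The PBS groups of the 2 times are other mice, and the difference between them was not tested. Cipc, a repressor that binds Clock, was outside the lists and chosen after its values were seen. It fell by 0.52 ± 0.12 (adjusted p = 0.0127). Time of day and food intake at 20 h were not measured here, and their part in these values was not tested.

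**Figure D4:**
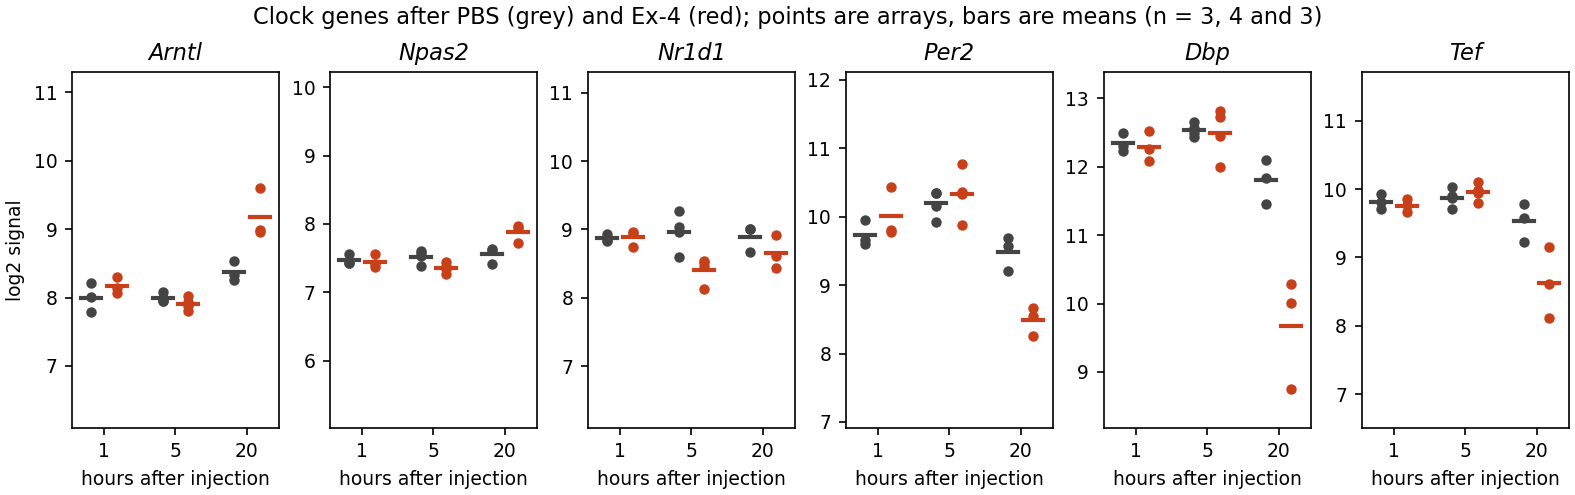
Log2 signal (vertical axis, equal span in each panel) of 6 clock genes at 1, 5 and 20 h after PBS (grey) and Ex-4 (red). Points are arrays and bars are means (n = 3 at 1 h, 4 at 5 h and 3 at 20 h). At 20 h Dbp has means of 11.80 after PBS and 9.68 after Ex-4, with 12.54 and 12.50 at 5 h.

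Of 21 retinoid genes 4 fell and 0 rose (median -0.06), beside 1.29% of all genes that fell. Retsat, which saturates retinol, was at 13.07, 13.09 and 13.14 after PBS and at 12.10, 12.35 and 11.95 after Ex-4, a 1.96-fold fall (adjusted p = 1.42e-05). Rdh7, a retinol dehydrogenase, was at 12.88, 12.98 and 12.96 against 11.73, 12.23 and 12.23 (-0.88 ± 0.11, adjusted p = 1.26e-05). Both were apart from PBS in all arrays. Bco1, which cleaves beta-carotene, had an adjusted p of 0.0338 (-1.26 ± 0.33) and passed only without PBS replicate 1 of the 6 fits that left out an array. Aldh1a1, which makes retinoic acid and stands in 2 of the lists, fell by 0.89 ± 0.22 and lost its call without Ex-4 replicate 1 or PBS replicate 2 or 3. Isx (-0.05 ± 0.20), which represses carotenoid uptake, and Rbp2 (-0.11 ± 0.07), the retinol-binding protein of enterocytes, did not pass.

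Of 21 genes of sugar transport and gluconeogenesis 3 fell (median -0.06), beside 1.29% of all genes that fell. Slc5a4b, of the sodium and glucose cotransporter family, was at 12.33, 12.47 and 12.61 after PBS and at 10.31, 11.65 and 10.71 after Ex-4, a 2.99-fold fall (adjusted p = 2.03e-05). Its neighbour Slc5a4a was at 11.08, 11.08 and 11.29 against 9.77, 11.02 and 9.87 (adjusted p = 0.00842). For both, Ex-4 replicate 2 lay closest to PBS, and for Slc5a4a it lay just under the PBS range. The call on Slc5a4a was lost without Ex-4 replicate 1 or 3 or PBS replicate 3, and the probes of these paralogs may share targets. Fbp1, a fructose bisphosphatase of gluconeogenesis, fell by 0.97 ± 0.14 (adjusted p = 0.000109). Slc5a1, the main glucose transporter of the brush border, differed by -0.05 ± 0.13, and Slc2a2 by -0.10 ± 0.13.

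Of 27 brush border genes 3 fell and 0 rose (median -0.17), beside 1.29% of all genes that fell. Lct, lactase, was at 14.08, 14.11 and 14.19 after PBS and at 13.30, 13.82 and 13.35 after Ex-4 (-0.63 ± 0.13, adjusted p = 0.00410), a call lost without Ex-4 replicate 1. Mme, neprilysin, a peptidase, was at 11.85, 11.76 and 11.94 against 11.25, 11.07 and 11.23, a 1.58-fold fall (adjusted p = 5.70e-05). Eps8, an actin capper of microvilli, fell by 0.55 ± 0.13, and its call was lost when replicate 2 of either group was left out. Sis, sucrase-isomaltase (-0.13 ± 0.08), Anpep, aminopeptidase N (0.00 ± 0.09), and Vil1, villin (-0.14 ± 0.08), did not pass. Among 30 vitamin and ion transporters, Slc46a1, the folate transporter of the proximal small intestine, fell by 0.84 ± 0.13 (adjusted p = 0.000308).

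Beside 1.29% of all genes that fell, in fatty acid oxidation 3 of 28 genes fell and 0 rose (median -0.09). They were the thiolase Acaa1b (-0.76 ± 0.14), the isomerase Eci1 (-0.36 ± 0.08) and the peroxisomal Hsd17b4 (-0.38 ± 0.07), and Eci1 lost its call without Ex-4 replicate 1 or PBS replicate 2. Bbox1, the last enzyme of carnitine synthesis, was outside that list and fell by 1.12 ± 0.17 (adjusted p = 0.000286). Aldoc, a fructose bisphosphate aldolase, was at 9.41, 9.23 and 9.24 after PBS and at 8.06, 8.24 and 8.06 after Ex-4, a 2.25-fold fall (adjusted p = 9.21e-06). Msmo1, a methylsterol oxidase, fell by 0.80 ± 0.11 (adjusted p = 4.73e-05), and it was the 1 of 18 cholesterol synthesis genes that passed, 16 of which lay below 0. Hsd17b11, a lipid droplet dehydrogenase, fell by 0.98 ± 0.13, Slc17a4, a urate and phosphate transporter, by 0.97 ± 0.19, and Susd2 by 0.97 ± 0.19. The calls on Slc17a4 and Susd2 were lost without Ex-4 replicate 1. Tm4sf4, a tetraspan membrane protein, fell by 1.02 ± 0.20 (adjusted p = 0.00335).

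Lists of proliferation, signalling and other cell types gave few calls, and the counts at an unadjusted p under 0.05 below stand beside 12.2% of all genes. Of 18 mitosis genes 17 lay above 0 (median 0.21) and 0 passed limma's test, with 4 at an unadjusted p under 0.05. Of 31 genes of DNA replication 27 lay above 0 (median 0.10) and 0 passed, with 3 at an unadjusted p under 0.05. Of 26 genes of NF-kB and STAT3 responses 0 passed (1 at an unadjusted p under 0.05), as did 0 of 31 interferon-induced genes (3), 0 of 15 cAMP and CREB targets (1) and 0 of 16 stem cell and Wnt genes (1). Socs3, the feedback inhibitor that STAT3 induces, differed by -0.53 ± 0.32, and Pigr, the receptor that carries IgA across the epithelium, by 0.35 ± 0.21.

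Of 10 MHC class II genes 9 lay below 0 (median -0.49) and 0 passed, with 2 at an unadjusted p under 0.05. H2-Ab1 was at 11.66, 12.56 and 11.93 after PBS and at 10.78, 11.28 and 11.53 after Ex-4 (-0.85 ± 0.29, adjusted p = 0.147). The mean level of this list was 9.09 to 9.52 after PBS and 8.58 to 9.15 after Ex-4, so the groups overlapped. Ccl24, a chemokine for eosinophils, was the 1 of 23 chemokines that passed. It was at 8.87, 8.55 and 8.52 after PBS and at 7.42, 7.74 and 7.85 after Ex-4, a 1.97-fold fall with no overlap (adjusted p = 0.00160). Of 4 mast cell and eosinophil genes tested 0 passed, and Mcpt2, Mcpt4, Cpa3, Cma1, Tpsb2, Epx, Siglecf and Ccr3 were not above the dim level. Ccl4 (-0.58 ± 0.16, adjusted p = 0.0514) and Ccl6 (-0.53 ± 0.15, adjusted p = 0.0662) missed the threshold.

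Clca1, a secreted goblet cell metalloprotease, rose by 0.61 ± 0.15 (adjusted p = 0.0299), alone among 19 goblet cell genes. Its groups overlapped, with Ex-4 replicate 3 at 13.219 under PBS replicate 1 at 13.395. The call on Clca1 was lost without Ex-4 replicate 1 or 2 or PBS replicate 2 or 3. It was also lost with only the 6 arrays compared, with the 9 arrays of 20 h and after background subtraction. Trpm5, the cation channel of tuft cells, rose by 0.44 ± 0.09 (adjusted p = 0.00746), alone among 12 tuft cell genes, and not without Ex-4 replicate 1 or PBS replicate 2. Of 14 smooth muscle, 13 endothelial, 15 macrophage and dendritic, 13 T cell, 8 B cell and 8 enteric neuron and glia genes tested 0 passed, and the pancreas gene Cela1 (-0.33 ± 0.09) was the 1 of 8 acinar genes that did, a call lost without PBS replicate 1 or 2 or Ex-4 replicate 2 or 3. Haemoglobin transcripts, which mark blood in the tissue, did not pass either, with Hba-a1 at 9.67 to 9.91 after PBS and at 10.71, 10.67 and 9.90 after Ex-4 (0.66 ± 0.56). Over the 5 of 7 red blood cell genes tested, the mean level was 8.76 to 8.95 after PBS and 9.41, 9.34 and 8.91 after Ex-4. It was lowest in Ex-4 replicate 3, which was nearest to PBS for 16 of the 25 largest rises. Over the 5 of 8 adipocyte genes tested, of which 0 passed, it was 7.93 to 7.95 after PBS and 8.15, 8.23 and 7.86 after Ex-4, again lowest in replicate 3. Replicate 3 was instead the highest of the Ex-4 arrays for smooth muscle (7.79, 7.81 and 8.19, against 7.88 to 8.16 after PBS), fibroblast and matrix (7.65, 7.83 and 8.13, against 7.80 to 8.05) and endothelium (7.32, 7.41 and 7.65, against 7.41 to 7.57). It was also the highest for macrophages and dendritic cells, at 8.22, and for Paneth cells, at 12.62. The part of these levels in the rises was not tested.

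The Fgf7 group of 20 h gives a second reference, from mice that received another protein. Ex-4 differed from Fgf7 in 231 genes (1.75%), 84 higher (0.636%) and 147 lower (1.11%), while 6 genes (0.0455%), all higher, differed between Fgf7 and PBS, where 4.01% had an unadjusted p under 0.05. Both comparisons of Ex-4 use the same 3 Ex-4 arrays, so genes chosen for their difference from PBS tend to differ from Fgf7 too, and the values are given side by side only. Among the 50 genes of the largest changes from PBS, Mbl2 (adjusted p = 0.0644), Cyp2c29 (adjusted p = 0.423), Bco1 (adjusted p = 0.133) and Ces1d (adjusted p = 0.152) did not pass against Fgf7. Saa1 was at 7.06, 7.05 and 7.05 after Fgf7, dim as after PBS. Pglyrp1 was at 10.93, 11.48 and 11.26 after Fgf7, and its difference between Ex-4 and Fgf7 was 1.25 (adjusted p = 0.000127). Ces1d was at 9.77, 9.80 and 9.26 after Fgf7, between the groups, and Gsta3 at 10.77, 10.32 and 10.21, from which Ex-4 differed by -1.50 on the log2 scale (adjusted p = 6.15e-05).

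Further genes with small p in this comparison were Ppt1, a lysosomal thioesterase (0.80 higher after Ex-4 than after Fgf7, adjusted p = 0.000127), Tmem252 (0.67, adjusted p = 1.03e-05), the complement component C2 (0.67, adjusted p = 0.000408) and Rrbp1, a ribosome-binding protein of the endoplasmic reticulum (0.56, adjusted p = 0.000116). Idh1, the cytosolic isocitrate dehydrogenase, was lower by 0.78 (adjusted p = 3.07e-05) and Coq10b by 0.64 (adjusted p = 2.13e-05). Mboat1, an acyltransferase, was lower by 0.78 than after Fgf7 (adjusted p = 1.05e-05), but it was at 7.62, 7.52 and 7.58 after Ex-4 and 7.37, 7.32 and 7.47 after PBS, and the Fgf7 arrays at 8.22, 8.56 and 8.28 stood apart. The count against Fgf7 was 87 when only these 6 arrays were fitted, 117 with the 9 arrays of 20 h, 137 with Ex-4 replicate 1 left out and 139 with Fgf7 replicate 1 left out. With Ex-4 replicate 3 left out it was 225, of which 110 were higher and 115 lower.

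The 5 h groups, from other mice, give the effect of Ex-4 at an earlier time. The effect of Ex-4 at 20 h differed from that at 5 h in 125 genes (0.947%), 64 with a higher effect at 20 h (0.485%) and 61 with a lower one (0.462%). None of the 50 genes of the largest changes passed at 5 h or at 1 h, where 119 (0.901%) and 0 genes (0.00%) passed in limma's test, with 390 (2.95%) at an unadjusted p under 0.05 at 1 h. For 14 of the 25 rises and 14 of the 25 falls the difference between the 2 effects passed, and these genes were chosen on the arrays of 20 h that enter it. The effect on Dbp was -0.04 at 5 h and -2.12 at 20 h (adjusted p of the difference 0.000655). Saa1 had means of 7.03 after PBS and 7.02 after Ex-4 at 5 h, both dim, so its effect there was not measurable and the fitted difference between the times (adjusted p = 3.44e-10) is not a measured size. Lcn2 had means of 7.06 and 7.22 at 5 h, at or near the dim level, and the same holds for its difference (adjusted p = 7.81e-06).

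For others a smaller effect of the same sign was seen at 5 h and the difference did not pass. Gpx2 had an effect of 0.58 at 5 h and 1.66 at 20 h (adjusted p of the difference 0.165), Gsdmc2 0.48 and 2.22 (0.0636), Cyp2c55 -0.60 and -1.92 (0.131), Gstm1 -0.62 and -1.49 (0.331) and Ccl24 -0.58 and -0.98 (0.623). The medians of the lists at 5 h were -0.12 for cytochromes P450, -0.14 for glutathione transferases, -0.12 for the conjugating transferases and -0.04 for the hydrolases, reductases and dehydrogenases, beside 0.00 for all genes. The acute-phase list had a median of 0.14 at 5 h, where 1 of its genes passed, and of 0.04 at 20 h.

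A few genes changed sign between the times. Msmo1 was higher at 5 h (0.74, adjusted p = 0.000186) and lower at 20 h (-0.80), a difference of -1.54 (adjusted p = 3.57e-07). Lss, lanosterol synthase, was higher by 0.94 at 5 h and at -0.37 ± 0.14 at 20 h, where it did not pass (difference -1.32, adjusted p = 0.000249). Phlda1 was higher by 0.91 at 5 h and lower by 0.79 at 20 h (difference -1.70, adjusted p = 0.000950), and its call at 20 h was kept in only 1 of the 6 fits without an array, that without Ex-4 replicate 3. H1f2, a linker histone, was lower at 5 h (-0.88) and at 0.39 ± 0.13 at 20 h, where it did not pass (difference 1.27, adjusted p = 0.000238). The count of 125 was 39 with only the 14 arrays compared, 60 without Ex-4 20 h replicate 1, 66 and 75 without PBS 20 h replicate 3 and 2, 65 without 4 arrays of 1 h and 5 h with high smooth muscle signal, 79 after background subtraction, 189 with a replicate block and 234 without Ex-4 20 h replicate 3.

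**Figure D5:**
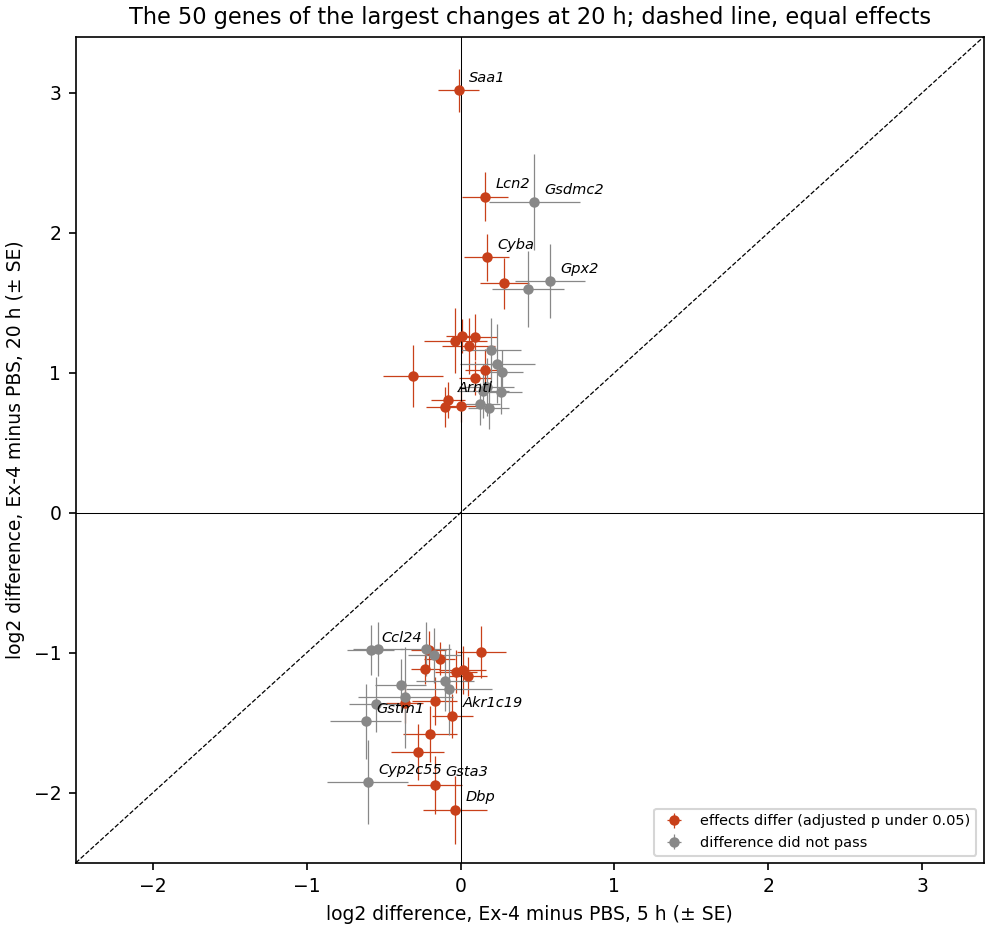
Log2 difference between Ex-4 and PBS at 5 h (horizontal axis) and at 20 h (vertical axis), each ± SE, for the 50 genes of the largest changes at 20 h. Red points are the 28 genes whose effects differed between the times at an adjusted p under 0.05 in limma's test, grey points the others, and the dashed line marks equal effects. Dbp lies at -0.04 and -2.12, and the effects at 5 h run only from -0.62 for Gstm1 to 0.58 for Gpx2.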

How the data were processed

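RNA from scraped jejunal mucosa of single mice was extracted with Trizol and labelled with the Illumina TotalPrep-96 kit, per the labels' protocols. The values used are log2 signals deposited by the authors in the series' value table. No label or header read here names the normalisation. At equal ranks the 30 arrays differed by an SD of at most 0.00218, as quantile normalisation leaves them. No background was subtracted here for the main fit, and whether the authors had done so is not stated. Background probes lie near 7.015, so folds of dim genes may be understated. A table of signals before normalisation was not used, because its 60 columns carry bare numbers that match no sample label.

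Of 45281 probes, 34885 have 1 gene symbol, 18 several and 10378 none in the platform annotation, and 34807 matched a RefSeq gene (GRCm38.p6). The probe of the highest mean over the 30 arrays stood for each gene. Genes above 7.18 in at least 3 arrays were tested. That level is the background mode, 7.015, plus the 99th percentile of a normal distribution of SD 0.071. All 9 groups of treatment and time were fitted with limma 3.58.1 (R 4.3.3; 21 residual and 4.604 prior degrees of freedom), and p-values were adjusted over 13201 genes by Benjamini-Hochberg, with a threshold of 0.05. Named genes were the 25 of the largest log2 difference in each direction among those past the threshold without overlap of arrays, list members past it, up to 4 other members of each list with the highest mean level, and the 5 of the smallest p in each direction against Fgf7 and 5 h. The comparison and the lists were chosen with earlier results of these data known. The fit was tested on simulated data with independent genes and, for each gene, the same spread in all groups. That test cannot show how the fit behaves where the Ex-4 arrays of 20 h spread more widely. Tables and plots were made with Python 3.11.15, pandas 2.3.3 and matplotlib 3.10.9. Precision is limited by the number of arrays.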

Additional observations from a re-analysis of the deposited data

Results flagged for a closer look

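For 28 of the 50 genes of the largest changes at 20 h, the effect of Ex-4 differed between 20 h and 5 h in limma's test of the difference itself. Among genes that rose at 20 h, the effect was higher at 20 h than at 5 h by 3.03 on the log2 scale for Saa1, 2.10 for Lcn2, 1.65 for Cyba, 1.36 for Pglyrp1, 1.29 for Sprr2a1, 1.26 for AA467197, 1.25 for Ltf, 1.16 for Capn13, 1.14 for Gsdmc3, 0.89 for Arntl, 0.87 for Glipr2, 0.86 for Oxct1, 0.86 for Cd55 and 0.76 for Duox2. Saa1, Lcn2 and Duox2 were dim in all PBS arrays of 20 h, so their fitted values are not measured sizes. Among genes that fell, the differences were -2.08 for Dbp, -1.78 for Gsta3, -1.43 for Ephx1, -1.40 for Akr1c19, -1.38 for Slc5a4b, -1.22 for Aldoc, -1.17 for Gsta2, -1.14 for Bbox1, -1.13 for Per2, -1.11 for Cyp2j9, -0.99 for Cyp3a25, -0.91 for Gsta1, -0.89 for Ugt2b36 and -0.77 for Hsd17b11.

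In the groups of 4 arrays at 5 h, 6 values of these genes lay far from the other 3 arrays of their group. Gpx2 was highest in PBS replicate 3, at 12.42. Rnf186 was highest in Ex-4 replicate 3, at 11.29, Cyp2c29 in Ex-4 replicate 4, at 8.0, and Bco1 in Ex-4 replicate 2, at 8.61. Cyp3a11 was lowest in PBS replicate 2, at 13.28, and Gsta1 highest in PBS replicate 4, at 14.49. These are 6.0% of 100 groups looked at, and chance gives about 5%, or 1 in 20.

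Probes without a gene symbol were outside the comparison. Of 5026 tested in the same way, 34 passed, 10 higher and 24 lower after Ex-4 at 20 h. The largest differences were 1.90 for ILMN_1214305 and 1.67 for ILMN_2753714 among the higher, and -1.87 for ILMN_1220901 and -1.75 for ILMN_3044544 among the lower.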

How the results depend on the processing

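The 302 genes between Ex-4 and PBS became 71 with only the groups compared, 132 with the 9 arrays of 20 h, and 134 to 316 when 1 array was left out. The 231 against Fgf7 became 87, 117 and 137 to 225 in the same fits. The 125 genes whose effect differed between 20 h and 5 h became 39 with only the groups compared, 79 after background subtraction, 65 without 4 arrays of 1 h and 5 h in which smooth muscle signal was high and 60 to 234 without 1 array. Without Ex-4 replicate 3 the higher genes made up 56.3% of those against PBS, beside 43.7% with it, 48.9% of those against Fgf7, beside 36.4%, and 151 of the 234, beside 64 of 125. PBS and Ex-4 arrays of the same replicate number deviated together at r = 0.363, 0 and 0.173, and those of different numbers at -0.269 to 0.054. The labels do not say whether equal numbers pair the samples, and a partial pairing was not tested. With the replicate number as a block the counts were 427, 293 and 189. The cause of these moves was not tested, except that fits of fewer arrays have fewer degrees of freedom. Other alternatives against PBS gave 231 to 387 genes. Of 2020 values for the 119 named genes that passed, 1730 kept their direction and call, 290 lost the call and 0 reversed. All 6 fits without 1 array kept 77 of the 119 genes, and every alternative kept 24 of the 50 of the largest changes. Of the 119 genes, 69 did not pass with only the groups compared and 44 with the 9 arrays of 20 h. Cyp2b10, Slc46a1, Cbr1, Ephx2 and Slc1a1 were among the 69, and Abcc2 was in both sets. Of 67 further probes above the dim level, 64 had the direction of the probe used, and those of Coq10b (0.04), Cyp2d22 (0.09) and Mme (0.05) did not. Glp1r and other dim genes could not be measured over background.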

Other observations

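Mitochondrial genes, grouped here after their values were seen, lay mostly above 0 at 20 h after Ex-4 with small differences. Of 73 genes of mitochondrial ribosomal proteins 65 were above 0 (median log2 difference 0.17) and 3 rose, Mrpl28, Mrpl37 (0.48 ± 0.11, adjusted p = 0.0147) and Mrpl38 (0.46 ± 0.12, adjusted p = 0.0426). Of 42 Nduf genes, for subunits and assembly factors of respiratory complex I, 38 were above 0 (median 0.13). The 1 that rose was Ndufaf5, an assembly factor and not a subunit (0.43 ± 0.09, adjusted p = 0.00369). Of 20 genes of protein import 17 were above 0 (median 0.19) and 2 rose, Timm10 and Tomm40l. Tufm, the mitochondrial elongation factor, was at 12.13, 11.79 and 11.80 after PBS and at 12.48, 12.43 and 12.32 after Ex-4 (0.51 ± 0.11, adjusted p = 0.00989). Cs, citrate synthase, was at 12.95, 12.93 and 12.97 against 13.22, 13.41 and 13.25 (0.34 ± 0.07, adjusted p = 0.00335). Sdhaf1, an assembly factor of succinate dehydrogenase, was at 9.54, 9.59 and 9.53 against 9.98, 10.03 and 9.98 (0.44 ± 0.08, adjusted p = 0.00151). The groups did not overlap for these 3 genes. Of all genes tested, 53.8% were above 0 and 1.00% rose. The lean was not particular to mitochondrial genes. Of 54 cytosolic ribosomal protein genes 51 were above 0 (median 0.11) and 0 passed limma's test, with 5 at an unadjusted p under 0.05, beside 12.2% of all genes. Of 36 proteasome genes 29 were above 0 (median 0.10), as were 8 of 8 chaperonin genes (median 0.12).

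Further genes that passed and are in none of the lists described above were also chosen after their values were seen. Iyd, which recovers iodide from tyrosines, fell by 0.82 ± 0.14 (adjusted p = 0.000670), and Slc13a2, a transporter of citrate and other dicarboxylates, by 0.80 ± 0.15 (adjusted p = 0.00280). Ghr, the growth hormone receptor, fell by 0.54 ± 0.13 (adjusted p = 0.0165), and Maob, a monoamine oxidase, by 0.59 ± 0.11 (adjusted p = 0.00289). Miga2, a protein of mitochondrial fusion, rose by 0.60 ± 0.10 (adjusted p = 0.000734), and Acss1, which activates acetate in mitochondria, by 0.70 ± 0.14 (adjusted p = 0.00517).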
